A study of Enchytraeus albidus with 15 samples.

Results

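The unprefixed T7 clones of the Enchytraeus albidus array are the probes that are not controls, whose name begins with none of Contig, Ealb_Met or Ealb_Pest and carries the mark T7, as in P5_D7_T7_1329838. The rule found 226 of the 1035 probes that are not controls, and it used names alone, no measured value. E. albidus, the white potworm, is a small soil oligochaete used in ecotoxicity tests. Adults with a clitellum, the glandular ring of a sexually mature worm, spent 2 days at 20 °C in clean soil (CT), in soil with silver nitrate at 100 or 200 mg/kg (AgNO3 100 and AgNO3 200) or in soil with silver nanoparticles at the same concentrations (Ag-NPs 100 and Ag-NPs 200). Each of the 5 groups had 3 biological replicates, each a pool of 10 worms taken as whole bodies and hybridised to 1 array in 1 colour, which gave 15 arrays. In pooled whole bodies, fewer cells of a type and less RNA per cell cannot be told apart.

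As background, T7 and SP6 are phage promoters that flank the insert in common cloning vectors, and a cDNA clone is often read from one of them. A name of this form therefore usually belongs to a single sequencing read of a library clone, with P5 and D7 in the style of a plate and a well, while a contig joins several reads. The files used here explain none of these marks and give the clones neither a gene name nor a sequence, so no function can be attached to any of them here, and tissue markers could not be checked. Silver nitrate releases silver ions at once, nanoparticles release them as they dissolve, and silver ions bind thiol groups of proteins.

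A level is the log2 of a clone's processed intensity, averaged over its 14 to 15 spots on an array, relative to the 75th percentile of the spots of that array that are not controls. Since probes differ in how they hybridise, levels are compared between groups for 1 clone and not between clones. On each array a clone was taken as above background where a share of at least 0.5 of its spots carried the scanner software's mark for it.

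Between 47 and 125 of the 226 T7 clones were well above background on an array, with a median of 87. In clean soil 113, 108 and 47 clones were above background on replicates 1 to 3. With AgNO3 100 the numbers were 89, 125 and 84, and with AgNO3 200 they were 95, 72 and 50. With Ag-NPs 100 they were 72, 63 and 97, and with Ag-NPs 200 they were 80, 92 and 87. The range within clean soil alone spanned nearly the range of the whole series, so that detection did not order the groups. CT replicate 3, AgNO3 200 replicate 3 and Ag-NPs 100 replicate 1 had the highest spread of the negative control spots, at 7.36, 12.6 and 9.87. They are called the arrays of high spread here, by a limit of 7. All 3 lay on slide 3 of the 3 slides, whose remaining arrays had 4.27 to 5.35. The arrays of the other slides had 2.49 to 4.26.

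**Figure D1:**
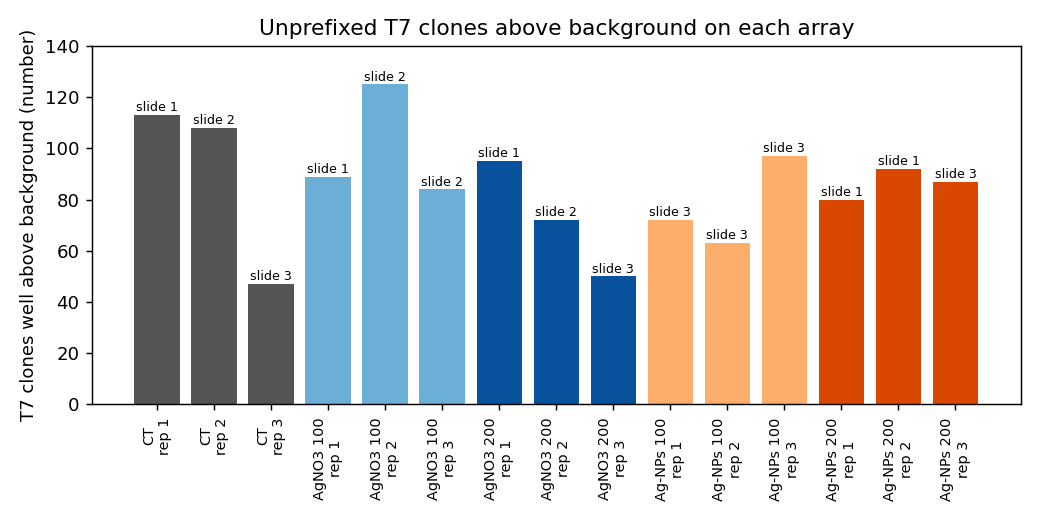
Number of unprefixed T7 clones well above background on each of the 15 arrays (bars, from 0), coloured by group and marked with the slide. CT replicate 3 has 47 clones, the fewest, and AgNO3 100 replicate 2 has 125, the most.

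The number of T7 clones above background on all 3 arrays of a group was 47 of 226 (20.8%) in clean soil, 80 (35.4%) with AgNO3 100, 50 (22.1%) with AgNO3 200, 58 (25.7%) with Ag-NPs 100 and 77 (34.1%) with Ag-NPs 200. Over all 1035 probes the shares were 26.8%, 41.7%, 24.1%, 31.0% and 38.1% in the same order. Without the 3 arrays of high spread the T7 counts were 104 in clean soil, 80 with AgNO3 100, 71 with AgNO3 200, 63 with Ag-NPs 100 and 77 with Ag-NPs 200, each over the arrays left, so that the low count in clean soil rested on CT replicate 3. Across the 15 arrays, 40 T7 clones (17.7%) were above background on every array, 80 (35.4%) on none and 106 on some. The corresponding shares of all probes were 21.9% on every array and 34.6% on none.

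Testing was limited to clones that 1 or more groups detected on all of their 3 arrays, which left 82 T7 clones, 36.3% of the 226. The share tested was 37.9% of the unprefixed SP6 probes, 48.4% of the Ealb_Met probes, 35.4% of the Ealb_Pest probes and 53.2% of the contigs. Of the 144 clones that were not tested, 64 were above background on some array. Of the 82 tested clones, 40 had reached background on all 3 arrays in all 5 groups and 6 in 1 group alone, 4 of them through AgNO3 100 and 2 through Ag-NPs 200. By plate mark, 15 of 46 P1 clones, 23 of 51 P2 clones, 13 of 49 P3 clones, 12 of 34 P4 clones and 19 of 46 P5 clones were tested. No T7 clone shared its plate and well mark with an unprefixed SP6 probe, so both ends of a clone could not be set side by side.

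The first question was which T7 clones differed from clean soil after each silver exposure. With AgNO3 200, 15 of the 82 tested clones changed, 12 rising by 2.45-fold to 6.51-fold and 3 falling. With AgNO3 100, 8 changed, 6 rising by 2.73-fold to 3.23-fold and 2 falling by 4.38-fold and 8.45-fold. With Ag-NPs 100 and with Ag-NPs 200 no clone passed the threshold. All 4 comparisons used the same 3 clean-soil arrays.

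The calls come from limma, fitted to all 15 arrays and 446 tested probes of the array, at a Benjamini-Hochberg adjusted p under 0.05. For AgNO3 200 the 15 clones are 18.3% of the tested T7 clones, against a background of 10.8% of all tested probes called. The rises alone are set against 7.85% of all probes called higher, and the falls against 2.91% called lower. For AgNO3 100 the 8 clones are 9.76%, against a background of 2.91%, with 2.47% of all probes called higher and 0.448% lower. For both nanoparticle groups the background was 0.0%. Before adjustment, 33 T7 clones had a p under 0.05 with AgNO3 200, against 28.5% of all tested probes, and 19 with AgNO3 100, against 11.9%. The 3 arrays of the group lay wholly outside the clean-soil arrays in 35 clones with AgNO3 200, where 32.5% of all probes did so, and in 24 clones with AgNO3 100, where 15.9% did. The shares of the T7 clones that these counts make up are 29.3% with AgNO3 100 and 42.7% with AgNO3 200.

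The counts rested on the processing and on single arrays. In the authors' deposited values of the same arrays, no T7 clone passed with AgNO3 100 and 1, P2_5A_T7_1328919, passed with AgNO3 200. With the slide as a block, 2 clones passed with AgNO3 100, both of them falls, and 11 passed with AgNO3 200. Without the 3 arrays of high spread, 2 passed with AgNO3 100 and 11 with AgNO3 200. No clone called in either comparison changed direction in any alternative.

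The median log2 difference of the 82 clones from clean soil was 0.18 with AgNO3 100, -0.41 with AgNO3 200, -0.06 with Ag-NPs 100 and 0.26 with Ag-NPs 200. Over all 446 tested probes it was 0.11, -0.21, -0.05 and 0.12. With AgNO3 200 the median lay below 0 although most calls were rises, as the plot of the differences from clean soil shows. Scaling on the spike-in controls moved the median of all probes with AgNO3 200 to -0.89 and that of the T7 clones to -1.09, and the calls were then 1 rise and 1 fall.

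**Figure D2:**
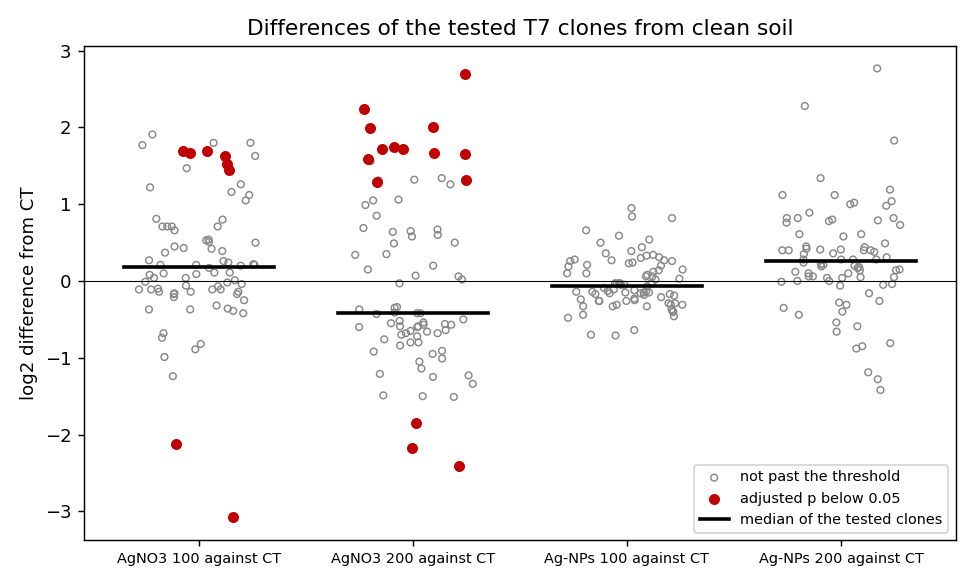
Log2 difference from clean soil (vertical axis) of each of the 82 tested T7 clones in the 4 silver groups, as points with horizontal jitter. Filled points passed an adjusted p of 0.05, 8 with AgNO3 100 and 15 with AgNO3 200, and thick bars mark the medians, which run from -0.41 to 0.26.

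Among the falls, P5_D7_T7_1329838 moved furthest. Its levels were 4.64, 3.56 and 2.84 in clean soil, 1.19, 0.10 and 0.51 with AgNO3 100 and 1.62, 1.24 and 0.95 with AgNO3 200. They were 3.28, 3.55 and 3.02 with Ag-NPs 100 and 3.87, 2.17 and 1.43 with Ag-NPs 200. Every AgNO3 array lay below every clean-soil array, the Ag-NPs 100 arrays lay inside the range of clean soil, and the Ag-NPs 200 arrays reached from that range down to the AgNO3 200 range. The level was 8.45-fold lower with AgNO3 100 (log2 difference -3.08, SE 0.57, limma adjusted p = 0.0333) and 5.32-fold lower with AgNO3 200 (-2.41, SE 0.57, adjusted p = 0.0195). Within slides 1 and 2 the difference with AgNO3 100 was -3.44 and -3.26, and within slides 1, 2 and 3 the difference with AgNO3 200 was -3.02, -2.33 and -1.89. With the slide as a block the limma adjusted p was 0.0035 with AgNO3 100 and 0.0132 with AgNO3 200. On the spike-in scale it was 0.0908 and 0.0558, and in the authors' deposited values 0.107 and 0.0695, none past the threshold.

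P2_B1_T7_1328894 showed the same order of groups. Its levels were 5.22, 4.30 and 3.79 in clean soil, 2.70, 2.02 and 2.20 with AgNO3 100 and 3.04, 2.26 and 2.46 with AgNO3 200. They were 4.41, 4.42 and 4.10 with Ag-NPs 100 and 4.85, 3.57 and 2.90 with Ag-NPs 200. All 6 AgNO3 arrays lay below all 3 clean-soil arrays, and both nanoparticle groups overlapped clean soil. The fall was 4.38-fold with AgNO3 100 (-2.13, SE 0.48, limma adjusted p = 0.0363) and 3.61-fold with AgNO3 200 (-1.85, SE 0.48, adjusted p = 0.0282). The difference with AgNO3 100 was -2.52 within slide 1 and -2.20 within slide 2, and the call held with the slide as a block (limma adjusted p = 0.0195). With AgNO3 200 the difference was -2.18, -2.05 and -1.33 within slides 1 to 3. On the spike-in scale the limma adjusted p was 0.213 with AgNO3 100 and 0.0995 with AgNO3 200. In the authors' deposited values it was 0.112 and 0.0695, so neither call passed in either setting.

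The profiles of P5_D7_T7_1329838 and P2_B1_T7_1328894 ran together over the 15 arrays with a Pearson correlation of 0.988, and of 0.974 once the group means were removed. Both clones were above background on all 15 arrays. Whether both probes read the same transcript was not tested, since the files hold no probe sequence.

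P2_5A_T7_1328919 was above background on 2 of the 3 clean-soil arrays and on all 3 arrays of each other group except AgNO3 200. Its levels were -0.35, -0.41 and -0.69 in clean soil and -1.53, -2.03 and -1.63 with AgNO3 100. With AgNO3 200 they were -2.52, -3.24 and -2.23, where the clone was not well above background on any array. With Ag-NPs 100 they were -1.27, 0.63 and -0.12, and with Ag-NPs 200 they were -0.39, -0.86 and -0.01. The AgNO3 200 arrays lay below all 12 others. The clone entered the test through AgNO3 100, Ag-NPs 100 and Ag-NPs 200, all with means above AgNO3 200. Its calls are therefore not independent of that filter. Since the AgNO3 200 signal sets only a bound, the level was at least 1.95-fold lower than in clean soil (fitted log2 difference -2.18, SE 0.44, limma adjusted p = 0.0119). Such a bound is taken against the dimmest signal that was well above background on each array. With AgNO3 100 the difference of -1.24 (SE 0.44) did not pass (limma adjusted p = 0.177). The difference with AgNO3 200 was -2.17, -2.83 and -1.54 within slides 1 to 3, and the limma adjusted p was 0.0185 with the slide as a block, 0.0101 on the spike-in scale and 0.0322 in the authors' deposited values.

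**Figure D3:**
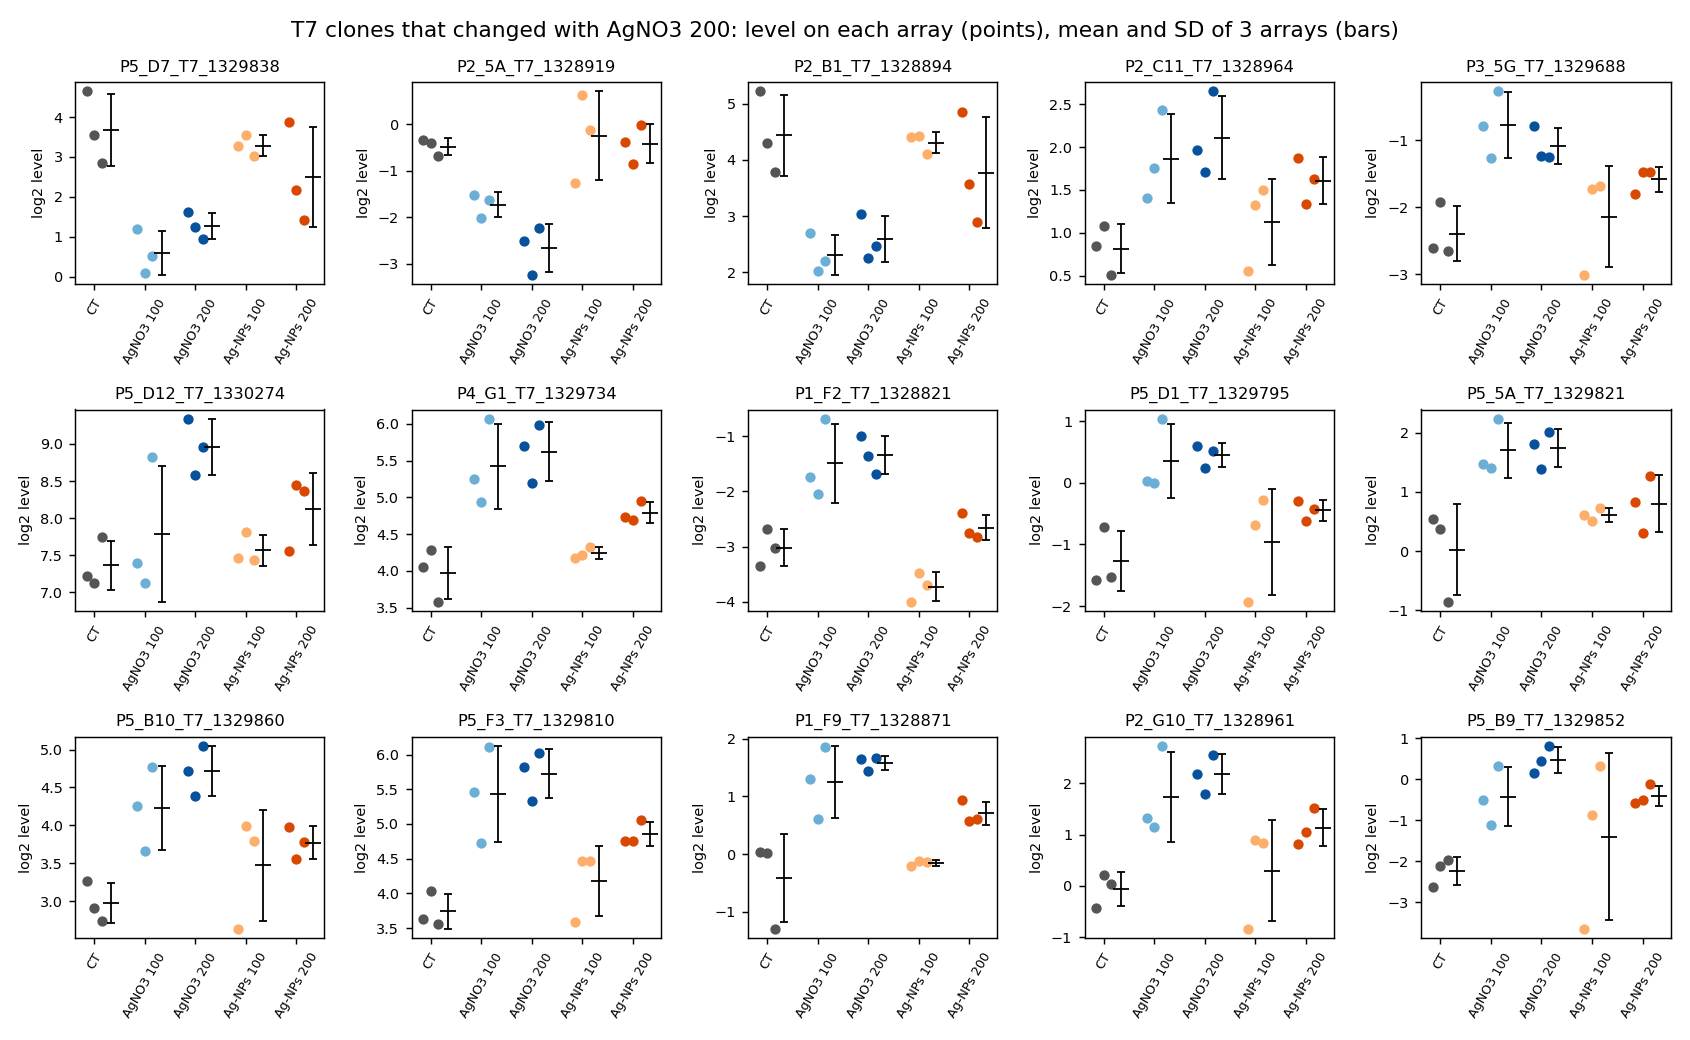
Log2 level (vertical axis) of each of the 15 T7 clones that changed with AgNO3 200, per array in the 5 groups (points), with the mean and SD of the 3 arrays (bars). The 3 clones that fell have their lowest group mean in an AgNO3 group, and the 12 that rose have both AgNO3 means above the clean-soil mean.

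Among the rises, 6 clones were above background on all 15 arrays. P5_F3_T7_1329810 had levels of 3.63, 4.03 and 3.56 in clean soil, 5.46, 4.72 and 6.11 with AgNO3 100, 5.82, 5.33 and 6.02 with AgNO3 200, 3.59, 4.47 and 4.47 with Ag-NPs 100 and 4.76, 4.75 and 5.06 with Ag-NPs 200. P4_G1_T7_1329734 had 4.05, 4.28 and 3.58, then 5.25, 4.94 and 6.07, then 5.70, 5.19 and 5.98, then 4.18, 4.21 and 4.33, and last 4.74, 4.69 and 4.95, in the same order of groups. In both clones the AgNO3 arrays and the Ag-NPs 200 arrays all exceeded the clean-soil arrays, while the Ag-NPs 100 arrays overlapped them. P5_F3_T7_1329810 rose 3.23-fold with AgNO3 100 (1.69, SE 0.38, limma adjusted p = 0.0363) and 3.96-fold with AgNO3 200 (1.99, SE 0.38, adjusted p = 0.0119). P4_G1_T7_1329734 rose 2.73-fold with AgNO3 100 (1.45, SE 0.35, limma adjusted p = 0.0363) and 3.15-fold with AgNO3 200 (1.66, SE 0.35, adjusted p = 0.0122).

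In the same set, P5_B10_T7_1329860 and P5_D12_T7_1330274 were called with AgNO3 200 and not with AgNO3 100. P5_B10_T7_1329860 had 3.26, 2.91 and 2.74 in clean soil, 4.25, 3.66 and 4.77 with AgNO3 100, 4.72, 4.39 and 5.05 with AgNO3 200, 2.63, 3.99 and 3.79 with Ag-NPs 100 and 3.98, 3.55 and 3.78 with Ag-NPs 200. Its rise with AgNO3 200 was 3.36-fold (1.75, SE 0.40, limma adjusted p = 0.0184), and its difference with AgNO3 100 was 1.26 (SE 0.40, adjusted p = 0.124). P5_D12_T7_1330274 had 7.22, 7.13 and 7.74 in clean soil, 7.40, 7.13 and 8.83 with AgNO3 100, 9.34, 8.58 and 8.96 with AgNO3 200, 7.46, 7.81 and 7.44 with Ag-NPs 100 and 7.56, 8.44 and 8.36 with Ag-NPs 200. For this clone 1 AgNO3 100 array reached the AgNO3 200 range and the others lay inside that of clean soil. It rose 3.02-fold with AgNO3 200 (1.59, SE 0.43, limma adjusted p = 0.0313). In the authors' deposited values the same difference was 0.01, and its cause was not tested. The difference between AgNO3 200 and AgNO3 100, 1.17 (SE 0.43), did not pass (limma adjusted p = 0.17).

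P2_G10_T7_1328961 and P2_C11_T7_1328964 carry the P2 mark and were also above background on all 15 arrays. The former had -0.43, 0.22 and 0.03 in clean soil, 1.33, 1.14 and 2.73 with AgNO3 100, 2.18, 1.79 and 2.56 with AgNO3 200, -0.84, 0.90 and 0.83 with Ag-NPs 100 and 0.81, 1.06 and 1.52 with Ag-NPs 200. The latter had 0.85, 1.08 and 0.51, then 1.41, 1.76 and 2.43, then 1.97, 1.71 and 2.65, then 0.55, 1.32 and 1.5, and last 1.87, 1.33 and 1.63. In both, clean soil was exceeded by every array of AgNO3 100, AgNO3 200 and Ag-NPs 200, and overlapped by Ag-NPs 100. The rise with AgNO3 200 was 4.72-fold for P2_G10_T7_1328961 (2.24, SE 0.50, limma adjusted p = 0.0184) and 2.45-fold for P2_C11_T7_1328964 (1.29, SE 0.38, adjusted p = 0.0439). With AgNO3 100 the differences of 1.80 (SE 0.50, limma adjusted p = 0.0749) and 1.05 (SE 0.38, adjusted p = 0.187) did not pass.

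A further 2 clones reached background on all arrays except 1 of clean soil, where the level was lowest. They entered the test through the silver groups, all with means above clean soil, so their calls are not independent of that filter. P1_F9_T7_1328871 had levels of 0.03, 0.02 and -1.30 in clean soil, 1.30, 0.60 and 1.85 with AgNO3 100, 1.65, 1.44 and 1.66 with AgNO3 200, -0.21, -0.12 and -0.14 with Ag-NPs 100 and 0.94, 0.58 and 0.60 with Ag-NPs 200. P5_5A_T7_1329821 had 0.55, 0.37 and -0.86, then 1.48, 1.40 and 2.24, then 1.81, 1.39 and 2.02, then 0.61, 0.50 and 0.73, and last 0.83, 0.31 and 1.27. The low value of both came from CT replicate 3, 1 of the 3 arrays of high spread, and the AgNO3 arrays exceeded clean soil with or without it. With AgNO3 200 they rose 4.0-fold (2.00, SE 0.39, limma adjusted p = 0.0119) and 3.30-fold (1.72, SE 0.41, adjusted p = 0.0195). With AgNO3 100 they rose 3.18-fold (1.67, SE 0.39) and 3.23-fold (1.69, SE 0.41), each at a limma adjusted p of 0.0363. Without the 3 arrays of high spread the differences with AgNO3 200 were 1.52 (limma adjusted p = 0.0456) for P1_F9_T7_1328871 and 1.14 (adjusted p = 0.0956) for P5_5A_T7_1329821.

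The dimmest rises were P1_F2_T7_1328821, P3_5G_T7_1329688, P5_D1_T7_1329795 and P5_B9_T7_1329852, all of which lacked detection on part of the arrays. P1_F2_T7_1328821 had -3.35, -2.68 and -3.02 in clean soil, -1.74, -2.04 and -0.68 with AgNO3 100, -1.0, -1.35 and -1.68 with AgNO3 200, -4.0, -3.48 and -3.69 with Ag-NPs 100 and -2.39, -2.75 and -2.82 with Ag-NPs 200. It was above background on 1 array of clean soil, on 3 of AgNO3 100, on 2 of AgNO3 200 and on none of either nanoparticle group, and all 6 AgNO3 arrays exceeded the other 9. It entered the test through AgNO3 100 alone, a group where it was high, so its calls are not independent of that filter. Its fitted log2 difference from clean soil, where most arrays give no level above background, was 1.53 (SE 0.37, limma adjusted p = 0.0363) with AgNO3 100 and 1.67 (SE 0.37, adjusted p = 0.0184) with AgNO3 200. P3_5G_T7_1329688 had -2.61, -1.92 and -2.66 in clean soil, -0.78, -1.26 and -0.27 with AgNO3 100, -0.78, -1.23 and -1.25 with AgNO3 200, -3.01, -1.73 and -1.68 with Ag-NPs 100 and -1.80, -1.48 and -1.47 with Ag-NPs 200. It rose 3.09-fold with AgNO3 100 (1.63, SE 0.40, limma adjusted p = 0.0363) and 2.48-fold with AgNO3 200 (1.31, SE 0.40, adjusted p = 0.0484). Only AgNO3 100 and Ag-NPs 200 detected it on all 3 arrays, with means of -0.77 and -1.58 against -2.4 in clean soil. It entered the test through these groups, where it was high, so its calls are not independent of that filter either.

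P5_D1_T7_1329795 and P5_B9_T7_1329852 were above background on 2 arrays of clean soil, 2 of Ag-NPs 100 and all 3 of each other group. They entered the test through those other groups, all with means above clean soil, so their calls are not independent of that filter. P5_D1_T7_1329795 had -1.57, -0.71 and -1.53 in clean soil, 0.03, -0.01 and 1.04 with AgNO3 100, 0.60, 0.24 and 0.51 with AgNO3 200, -1.93, -0.69 and -0.28 with Ag-NPs 100 and -0.29, -0.62 and -0.43 with Ag-NPs 200. P5_B9_T7_1329852 had -2.63, -2.12 and -1.96, then -0.50, -1.11 and 0.32, then 0.16, 0.43 and 0.81, then -3.65, -0.88 and 0.33, and last -0.59, -0.51 and -0.13. The Ag-NPs 100 arrays of P5_B9_T7_1329852 ran from below clean soil to the top of the AgNO3 100 range, the widest spread of a group among the 15 clones. With AgNO3 200 P5_D1_T7_1329795 rose 3.29-fold (1.72, SE 0.43, limma adjusted p = 0.0282) and P5_B9_T7_1329852 rose 6.51-fold (2.70, SE 0.72, adjusted p = 0.03). With AgNO3 100 the differences of 1.63 (SE 0.43, limma adjusted p = 0.0555) and 1.80 (SE 0.72, adjusted p = 0.235) did not pass.

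For the 12 rises with AgNO3 200, no slide on its own reversed a difference. With the slide as a block, P5_B9_T7_1329852 (limma adjusted p = 0.0535), P5_D12_T7_1330274 (0.0585), P2_C11_T7_1328964 (0.0764) and P3_5G_T7_1329688 (0.0901) no longer passed. Over all alternatives, fits within a slide included, P3_5G_T7_1329688 kept its AgNO3 200 call in 4 of 30 and P2_C11_T7_1328964 in 8 of 31. The other rises kept theirs in 15 of 31 (P5_D12_T7_1330274) to 26 of 31 (P2_G10_T7_1328961). For P5_F3_T7_1329810 the difference with AgNO3 200 was 2.19, 1.30 and 2.47 within slides 1 to 3, and for P4_G1_T7_1329734 it was 1.65, 0.91 and 2.40. For P2_G10_T7_1328961 it was 2.61, 1.57 and 2.54. None of the 6 rises with AgNO3 100 passed with the slide as a block. For P5_F3_T7_1329810 that difference was 1.83 within slide 1 and 1.39 within slide 2, with a limma adjusted p of 0.113 in the blocked fit. Over all alternatives the 6 rises kept their AgNO3 100 call in 8 of 29 (P1_F2_T7_1328821) to 12 of 30 (P5_F3_T7_1329810).

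Without AgNO3 200 replicate 3, 3 of the 15 calls with AgNO3 200 were left, without CT replicate 1 there were 6 and without CT replicate 2 there were 8. The 8 calls with AgNO3 100 fell to 0 without CT replicate 1, CT replicate 2, AgNO3 100 replicate 1, AgNO3 100 replicate 3 or Ag-NPs 200 replicate 2. There was 1 call without CT replicate 3, there were 2 without Ag-NPs 200 replicate 3, and there were 13 without Ag-NPs 100 replicate 1. The nanoparticle arrays enter through the shared estimate of the spread.

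The 15 clones called in any pairwise comparison carry all 5 plate marks, with 2 from P1, 4 from P2, 1 from P3, 1 from P4 and 7 from P5. Of the 15, 8 were above background on all 15 arrays.

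The same 15 clones can be followed through the nanoparticle groups in the plot of their differences from clean soil. The 12 that rose with AgNO3 200 had a median log2 difference of 1.63 with AgNO3 100 (range 0.42 to 1.80) and of 1.72 with AgNO3 200 (1.29 to 2.70). Their median was 0.31 with Ag-NPs 100 (-0.71 to 0.84) and 0.82 with Ag-NPs 200 (0.36 to 1.83). The 3 that fell had medians of -2.13, -2.18, -0.13 and -0.66 in the same order of groups. All 4 comparisons share the clean-soil arrays, so these values are given side by side and carry no test. The clones were chosen by their call with AgNO3 200, which favours a large difference in that group.

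**Figure D4:**
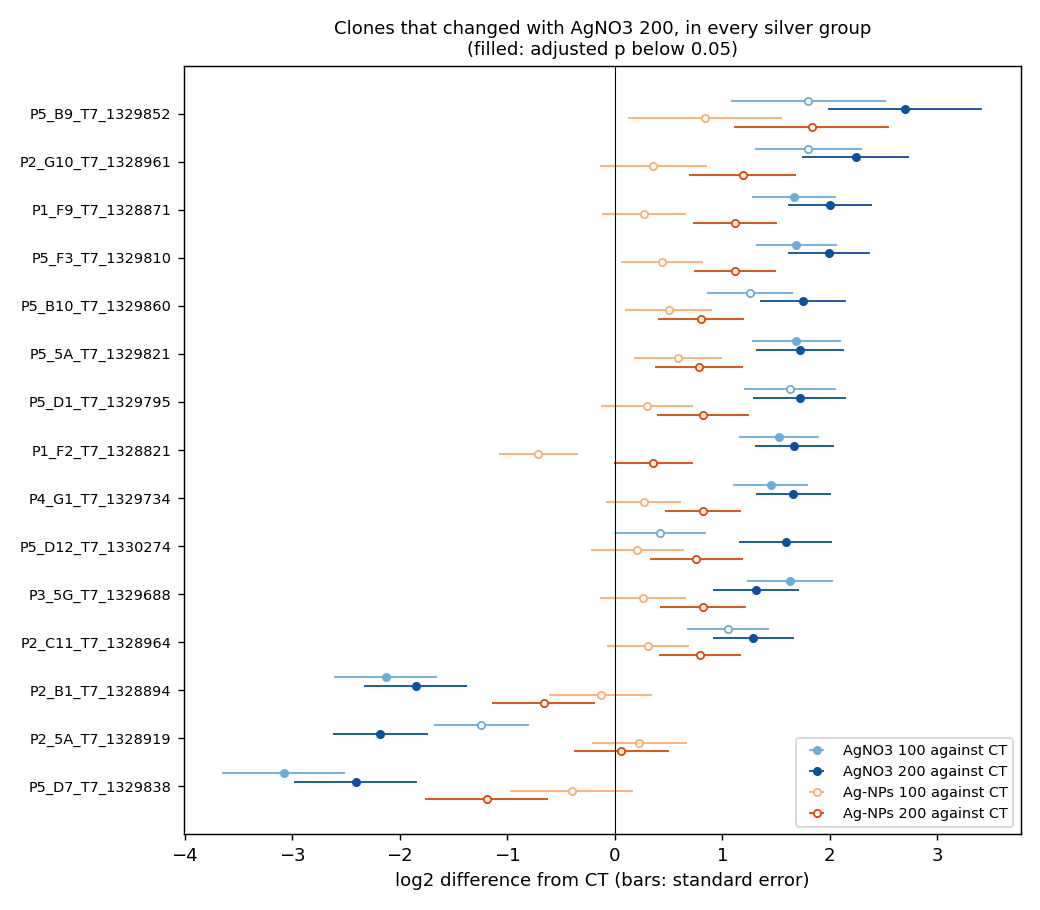
Log2 difference from clean soil (horizontal axis, bars are the standard error) of the 15 T7 clones that changed with AgNO3 200, in each silver group. Filled points passed an adjusted p of 0.05. The 12 clones that rose were chosen by their AgNO3 200 call. Their medians are 1.63 with AgNO3 100, 1.72 with AgNO3 200, 0.31 with Ag-NPs 100 and 0.82 with Ag-NPs 200.

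No T7 clone passed in the nanoparticle groups against clean soil. With Ag-NPs 100 the smallest adjusted p in limma was 0.996, no T7 clone had an unadjusted p under 0.05, and 2.24% of all tested probes did. Among clones that the brighter group detected on each of its 3 arrays, those of smallest unadjusted p were P5_5A_T7_1329821 (0.59, SE 0.41) and P5_B10_T7_1329860 (0.50, SE 0.40) above clean soil, and P5_F7_T7_1329840 (-0.70, SE 0.72) and P2_E9_T7_1328952 (-0.33, SE 0.34) below it, each at a limma adjusted p of 0.996. All Ag-NPs 100 arrays lay on slide 3, whose clean-soil array was CT replicate 3. For 74 of the 82 clones the 95% interval of the difference lay within 4-fold in either direction, and for 16 within 2-fold, so that a smaller change could have been missed in most clones.

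With Ag-NPs 200, 10 of the 82 clones had an unadjusted p under 0.05 in limma (9.87% of all tested probes did), and the smallest adjusted p was 0.382. The 3 Ag-NPs 200 arrays did not overlap clean soil in 19 clones, against 14.6% of all tested probes, and lay above it in 18 of them, against 10.3%. The clone furthest from clean soil was P2_C1_T7_1328895, with levels of 3.66, 2.89 and 2.26 in clean soil and 6.45, 5.81 and 4.87 with Ag-NPs 200. It had 4.71, 1.90 and 3.72 with AgNO3 100, 4.95, 3.37 and 4.5 with AgNO3 200 and 2.45, 3.23 and 4.74 with Ag-NPs 100. The Ag-NPs 200 arrays lay above all clean-soil arrays by a difference of 2.77 (SE 0.73), which did not pass (limma adjusted p = 0.382). The difference was 2.47 within slide 1 and 2.61 within slide 3, each against a single clean-soil array.

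Below clean soil, P3_E8_T7_1329707 had levels of 0.11, 0.15 and 0.31 in clean soil and 0.15, -1.78 and -2.05 with Ag-NPs 200, so that 1 of the 3 arrays lay inside the clean-soil range. The difference of -1.42 (SE 0.53) did not pass (limma adjusted p = 0.382). P5_G8_T7_1329849 had a mean level of 0.94 ± 0.50 (SD, n = 3) in clean soil and -0.34 ± 0.94 (SD, n = 3) with Ag-NPs 200, a difference of -1.28 (SE 0.55, limma adjusted p = 0.459). P5_F3_T7_1329810, described above among the rises with AgNO3, had a difference of 1.12 (SE 0.38) that did not pass either (limma adjusted p = 0.382). For 68 of the 82 clones the 95% interval with Ag-NPs 200 lay within 4-fold, and for 11 within 2-fold.

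The second question was whether the nanoparticles differed from the salt at the same concentration. At 100 mg/kg 2 T7 clones did, against a background of 1.12% of all tested probes called, 0.224% higher and 0.897% lower. Before adjustment 16 of the 82 had a p under 0.05 in limma, against 10.1% of all tested probes. P5_D7_T7_1329838 was 6.42-fold higher with Ag-NPs 100 than with AgNO3 100 (2.68, SE 0.57, limma adjusted p = 0.0315), and all Ag-NPs 100 arrays exceeded all AgNO3 100 arrays. Against AgNO3 100, P1_F2_T7_1328821 lay at least 1.14-fold lower with Ag-NPs 100, where no array had it above background (fitted difference -2.24, SE 0.37, limma adjusted p = 0.0118), though the clone had entered the test through its detection with AgNO3 100 alone. No slide and no scan day held arrays of both 100 mg/kg groups, so the form could not be told apart from the slide or the scan day. A fit with the slide as a block links these groups only through the other groups. With the slide as a block the limma adjusted p was 0.02 for P5_D7_T7_1329838 and 0.279 for P1_F2_T7_1328821. In the authors' deposited values it was 0.0959 and 0.0117, and on the spike-in scale 0.153 and 0.0121. Without the 3 arrays of high spread it was 0.0731 and 0.0509, so that neither clone passed. Neither clone was called without AgNO3 100 replicate 3 or without Ag-NPs 100 replicate 3, where the count fell to 0. P5_D7_T7_1329838 was also lost without CT replicate 2, AgNO3 100 replicate 1 or 2, AgNO3 200 replicate 2 or Ag-NPs 100 replicate 2.

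At 200 mg/kg 1 T7 clone differed, again with 1.12% of all tested probes called, 0.673% higher and 0.448% lower. Before adjustment 31 of the 82 had a p under 0.05 in limma, against 31.2% of all tested probes. P2_5A_T7_1328919 was at least 2.04-fold higher with Ag-NPs 200 than with AgNO3 200 (fitted difference 2.24, SE 0.44, limma adjusted p = 0.0315), with no overlap of the arrays. The clone had entered the test through groups that include Ag-NPs 200 and not AgNO3 200, so this call is not independent of that filter. The difference was 1.89 within slide 1 and 2.21 within slide 3, and the limma adjusted p was 0.0999 with the slide as a block and 0.0223 in the authors' deposited values. The count was 0 without CT replicate 2, AgNO3 200 replicate 2, Ag-NPs 200 replicate 2 or Ag-NPs 200 replicate 3. It rose to 2 without AgNO3 100 replicate 3, 3 without Ag-NPs 100 replicate 1, 5 without AgNO3 200 replicate 1 and 8 without Ag-NPs 200 replicate 1. With brightness of the array as a covariate it was 16.

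The median log2 difference of nanoparticles from salt over the 82 clones was -0.21 at 100 mg/kg and 0.47 at 200 mg/kg, against -0.15 and 0.21 over all tested probes. The 95% interval lay within 4-fold for 63 clones at 100 mg/kg and for 51 at 200 mg/kg. A test of whether the gap between the forms depended on concentration gave no call among the T7 clones, with a smallest limma adjusted p of 0.274, while 13 of the 82 had an unadjusted p under 0.05, against 11.4% of all tested probes, of which 0.0% were called. The clones of smallest unadjusted p were P1_F3_T7_1328829 (3.54, SE 1.0, limma adjusted p = 0.274) and P4_E12_T7_1329790 (2.21, SE 0.71, adjusted p = 0.372) above 0, and P3_E8_T7_1329707 (-2.28, SE 0.75, adjusted p = 0.372) and P5_G8_T7_1329849 (-1.58, SE 0.77, adjusted p = 0.413, unadjusted p = 0.0603) below 0.

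The third question was whether the 200 mg/kg groups differed from the 100 mg/kg groups. With AgNO3 no T7 clone passed, with 0.0% of all tested probes called and a smallest limma adjusted p of 0.17, and 15 of the 82 clones had an unadjusted p under 0.05, against 19.7% of all tested probes. P1_F3_T7_1328829 had a mean level of 0.53 ± 0.86 (SD, n = 3) with AgNO3 100 and -1.72 ± 0.31 (SD, n = 3) with AgNO3 200, a difference of -2.24 (SE 0.71, limma adjusted p = 0.17). P4_E12_T7_1329790 had 1.77 ± 0.82 and 0.11 ± 0.37 (SD, n = 3 each), a difference of -1.66 (SE 0.50, limma adjusted p = 0.17). On the other side, P5_A4_T7_1329813 differed by 1.03 (SE 0.53, limma adjusted p = 0.291). Without AgNO3 100 replicate 3 the count was 4.

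With the nanoparticles no T7 clone passed between the concentrations, with 0.0% of all tested probes called and a smallest limma adjusted p of 0.586, and 5 of the 82 had an unadjusted p under 0.05, against 6.95% of all tested probes. P2_C1_T7_1328895 was higher with Ag-NPs 200 by 2.23 (SE 0.73, limma adjusted p = 0.586) and P1_F9_T7_1328871 by 0.86 (SE 0.39, adjusted p = 0.662), neither past the threshold. P3_E8_T7_1329707 differed by -1.26 (SE 0.53, limma adjusted p = 0.622) and P5_G8_T7_1329849 by -0.97 (SE 0.55, adjusted p = 0.696). The median difference over the 82 clones was -0.32 between the AgNO3 groups and 0.27 between the nanoparticle groups, against -0.19 and 0.18 over all tested probes.

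Across the 5 groups at once, limma's F test called 7 T7 clones, 8.54% of the 82, against a background of 4.04%, and 25 had an unadjusted p under 0.05, against 21.7% of all tested probes. They were P1_F2_T7_1328821, P2_5A_T7_1328919 and P5_D7_T7_1329838 (adjusted p = 0.0186 each), P1_F9_T7_1328871 (0.0212), P5_F3_T7_1329810 (0.0235), and P4_G1_T7_1329734 and P2_B1_T7_1328894 (0.0271 each). Of these, P1_F2_T7_1328821 had entered the test through AgNO3 100 alone. P1_F9_T7_1328871 had entered it through the silver groups, and P2_5A_T7_1328919 through every group except clean soil and AgNO3 200. These calls are not independent of that filter. The count was 14 without Ag-NPs 100 replicate 1, 11 without Ag-NPs 100 replicate 3, 3 without AgNO3 100 replicate 1 or AgNO3 200 replicate 3 and 4 without CT replicate 1 or AgNO3 200 replicate 2.

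By the scanner mark, 6 T7 clones were above background on all 3 arrays of 1 group and on none of another. How many of all probes did so was not counted. The group without detection was Ag-NPs 100 or AgNO3 200, which each hold an array of high spread. For P1_F2_T7_1328821 it was also Ag-NPs 200. P2_5A_T7_1328919, P1_F2_T7_1328821 and P3_5G_T7_1329688 are among the clones called above. P3_5G_T7_1329688 was above background on 2 arrays of clean soil, 3 of AgNO3 100, 2 of AgNO3 200, none of Ag-NPs 100 and 3 of Ag-NPs 200. P4_B10_T7_1329776 had the same counts, with mean levels from -2.26 ± 0.62 (SD, n = 3) with Ag-NPs 100 to -1.22 ± 0.45 (SD, n = 3) with AgNO3 100. P2_B11_T7_1328963 was above background on 2, 3, 1, 0 and 3 arrays of clean soil, AgNO3 100, AgNO3 200, Ag-NPs 100 and Ag-NPs 200. Its mean level was -2.38 in clean soil and -2.28 with Ag-NPs 100, so the mark did not follow the level alone. The same means of P3_5G_T7_1329688 were -2.4 and -2.14. P3_B6_T7_1329690 was above background on 2, 2, 0, 2 and 3 arrays in that order, with a mean level of -2.48 ± 0.40 (SD, n = 3) with AgNO3 200 against -0.97 ± 0.85 (SD, n = 3) in clean soil. Neither P4_B10_T7_1329776, P2_B11_T7_1328963 nor P3_B6_T7_1329690 was called in any comparison.

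At the bright end, P3_E9_T7_1329715 was saturated on all 15 arrays and P2-11A_T7_618940 on 1 array of Ag-NPs 200, so that levels of the former could not show a rise, and the range of 0.49 over its group means says nothing of how it varied. Among the other clones above background on every array, the smallest ranges of group means were 0.61 for P2_H3_T7_1328913 and 0.62 for P3_C12_T7_1329728. P2_H3_T7_1328913 had mean levels of 5.21 ± 0.51 in clean soil, 5.32 ± 0.19 with AgNO3 100, 4.71 ± 0.55 with AgNO3 200, 5.06 ± 0.17 with Ag-NPs 100 and 5.26 ± 0.29 with Ag-NPs 200 (SD, n = 3 each). The largest ranges among those 40 were 3.08 for P5_D7_T7_1329838, 2.77 for P2_C1_T7_1328895 and 2.24 for P2_G10_T7_1328961.

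The median SD between replicates of the tested T7 clones was 0.493 in clean soil, 0.526 with AgNO3 100, 0.480 with AgNO3 200, 0.576 with Ag-NPs 100 and 0.347 with Ag-NPs 200, while the median SD between spots of a clone within an array was 0.0824 to 0.202. The median standard error of a difference between groups was 0.44.

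Some T7 clones followed each other closely over the 15 arrays, which is given as a description, since arrays share their group and slide. Of the 3321 pairs of tested clones, 17 pairs had a Pearson correlation over 0.95, while the median pair had 0.09 and the lowest -0.86. P2_E9_T7_1328952 and P3_G9_T7_1329717 reached 0.997, and 0.996 after the group means were removed. P2_C2_T7_1328903 and P5_F7_T7_1329840 reached 0.985. P2_G10_T7_1328961 and P5_F3_T7_1329810 reached 0.969, and P4_G1_T7_1329734 and P5_F3_T7_1329810 reached 0.966, all 3 of them rises with AgNO3 200. P1_F2_T7_1328821, the clone of smallest F test p, was most like P4_B10_T7_1329776 (0.87), P5_D1_T7_1329795 (0.87) and P4_G1_T7_1329734 (0.86). These pairs over 0.95 were picked after their values were seen.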

How the data were processed

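The deposited scanner files give a processed intensity per spot, made by the authors, per the file headers, with Agilent Feature Extraction 10.5.1.1, already background-subtracted, with marks per spot for well above background, saturation and outliers. The authors' deposited series table holds log2 values of the same arrays, correlating at 0.969 to 0.993 with the log2 scanner values, with column medians of 5.48 to 5.51 and 20.2% to 44.1% of values missing. How it was normalized is not given in the sources used.

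The log2 processed intensity was averaged over a probe's spots without outlier marks and scaled on the 75th percentile of each array. Of 1035 probes, the 446 (82 T7 clones) that 1 or more groups detected on all of their 3 arrays were tested with limma 3.58.1 in R 4.3.3, in 1 fit of 15 arrays with 10 residual degrees of freedom and 10 comparisons, Benjamini-Hochberg adjusted over the 446 probes at 0.05. The test was checked on simulated data. The number of arrays limits the precision. The slide and the scan day were tried as blocks. The files hold no mean spot signal, so the normexp alternative (offset 50) started from the median signal.

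Named clones are those called, and where a comparison had none, up to 2 on each side with the smallest unadjusted p, for pairs of groups among clones that the brighter group detected on each of its 3 arrays. Saturated clones, those switching between all 3 arrays and none, the 3 smallest and 3 largest ranges of group means, and the 3 most like the clone of smallest F test p were named too. The members, lists and tests were chosen with earlier results of these data known.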

Additional observations from a re-analysis of the deposited data

How the results depend on the processing

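No T7 clone called in any comparison changed direction under an alternative. Of 1527 values of named clones under the alternatives, called or not, 1119 kept their side of the threshold and any direction. A further 393 lost a call, 10 gained one and 5 turned sign. Clones that had not passed had no call to lose, so 393 of 1527 understates how often a call was lost. Counts of changed clones that moved by over 1.5 times were these. For AgNO3 100 against CT (8 clones), scaling on probes above background on all arrays gave 2 (0 rises and 2 falls), spike-in scaling 0, the authors' deposited values 0, no filter on dim probes 0, probes above background on all arrays alone 4, the slide or the scan day as a block 2 each, within slide 1 gave 1, within slide 2 gave 0, and within scan day 1 or without the 3 arrays of high spread (both chosen after seeing the data) 2 each. For AgNO3 200 against CT (15, 12 rises and 3 falls), spike-in scaling gave 2 (1 and 1), the authors' values 1 (0 and 1), no filter 5, the strict filter 9, within slides 1, 2 and 3 gave 5, 0 and 0, and within scan day 1 gave 6; scaling on probes above background on all arrays gave 9 rises and 5 falls. For Ag-NPs 100 against AgNO3 100 (2), array median scaling gave 5 (1 rise and 4 falls), normexp 0, the authors' values 1, no filter 0, the strict filter 0, the slide block 1, brightness as a covariate 6, and without the arrays of high spread 1; spike-in scaling gave 0 rises and 2 falls. For Ag-NPs 200 against AgNO3 200 (1), normexp gave 5 (3 rises and 2 falls), the authors' values 2, no filter 2, the strict filter 0, the slide block 0, brightness 16, within slide 1 gave 2 and within slide 3 gave 0. Ag-NPs 200 against CT (0) gave 1 within slide 1. AgNO3 200 against AgNO3 100 (0) gave 2 within slide 1 and 1 within scan day 1. The interaction (0) gave 2 with brightness and 1 without the arrays of high spread. For Ag-NPs 100 against AgNO3 100, the 1 clone without the arrays of high spread was neither of the 2 called above. For Ag-NPs 200 against AgNO3 200, the 5 clones with normexp did not include P2_5A_T7_1328919. The F test (7) gave 12 with array median scaling, 2 on the spike-in scale, 1 from the authors' values, 3 with no filter, 4 with the strict filter, 2 with the slide block, 4 with the day block, 17 with brightness and 4 without the arrays of high spread. Within a slide most groups have 1 array, assumed to vary like the group with more (Ag-NPs 200 on slide 1, AgNO3 100 on slide 2, Ag-NPs 100 on slide 3), so those counts compare arrays rather than conditions. The cause was not tested for any of these. Leaving out 1 array gave 0 to 13, 3 to 19, 0 to 0 and 0 to 1 clones for AgNO3 100, AgNO3 200, Ag-NPs 100 and Ag-NPs 200 against CT, 0 to 3 and 0 to 8 for nanoparticles against salt at 100 and 200 mg/kg, 0 to 4 and 0 to 1 between concentrations of AgNO3 and Ag-NPs, 0 to 1 for the interaction and 3 to 14 for the F test. The reversals were of clones that had not passed. P5_F7_T7_1329840 with Ag-NPs 100 against CT was at 0.19 with the slide block, 0.28 with the day block and 0.32 within slide 3. P2_E9_T7_1328952 in that comparison was at 0.17 within slide 3, and P5_D12_T7_1330274 between the AgNO3 groups was at -0.0026 in the authors' values.

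Whether the replicate numbers pair the arrays was not tested, and the main fit did not use them. Over 30 same-numbered pairs the correlation of deviations ran from -0.50 to 0.74 with a median of -0.09, and 7 of 15 arrays were closest to their own number. With the replicate block 3 clones passed with AgNO3 100, 14 with AgNO3 200 against CT, and 0 for Ag-NPs 200 against AgNO3 200.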
